A study of Mus musculus with 14 samples.

Results

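The synaptic vesicle fusion machinery was followed in POMC neurons of the mouse hypothalamus, neurons that make the precursor of the appetite-lowering melanocortin peptides. Its genes were taken by symbol: the numbered Syt (synaptotagmin), Stx (syntaxin) and Vamp genes, Cplx1 to Cplx4, Snap23, Snap25, Snap29, Snap47 and Snap91, Rims1 to Rims4, Unc13a to Unc13d, the Stxbp genes, Doc2a, Doc2b and Doc2g, Syn1 to Syn3 and Sv2a to Sv2c, each listed as protein-coding. These were 72 of the 44672 genes in the table. Snap91 matches by symbol but encodes AP180, a clathrin adaptor of vesicle retrieval and not a SNARE.

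A synaptic vesicle fuses when a SNARE on the vesicle (synaptobrevin, from the Vamp genes) zippers with syntaxin and SNAP-25 in the plasma membrane. Munc18 proteins hold syntaxin, Munc13 and RIM proteins prepare the docked vesicle, complexins clamp and assist the partly zippered complex, and synaptotagmins bind calcium and trigger fusion. POMC neurons use related proteins for the large dense-core vesicles that carry their peptides.

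RNA bound to EGFP-tagged L10a ribosomes was pulled down (IP) and sequenced beside input RNA of the same tissue. POMC Lepr+ neurons, which express or have expressed the leptin receptor gene, came from POMCDre+/- LeprCre+/- ROSA26lSlrSrEGFPL10a+/- mice, in 4 pools of 6 mice. POMC Glp1r+ neurons, marked through the gene of the GLP-1 receptor, came from POMCDre+/- Glp1rCre+/- ROSA26lSlrSrEGFPL10a+/- mice, in 3 pools of 12 mice. Every pool held as many males as females, the mice were 12 weeks old and random-fed, and no group was treated. The tag, encoded at the ROSA26 locus, is made only in cells in which both Dre, from a transgene under Pomc control, and Cre, from the Lepr or Glp1r driver, have acted at any time. Pool size differs with genotype, so effects of the pool size and of the line cannot be told apart. The paper describes whole hypothalami and the labels a dissected arcuate nucleus, so the tissue to which each ratio refers is not settled.

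The deposited table gives 1 comparison between the lines, with a mean over the 7 pools and the log2 of POMC Glp1r+ over POMC Lepr+ (log2 fold change) with its standard error. From these, a mean IP/input ratio was calculated for each line, and wherever a pair of ratios is given, that of POMC Lepr+ neurons comes first. This ratio measures enrichment in the tagged cells over the tissue and not the abundance of a transcript: a ratio of 1 means that IP and input counts were equal, and no scaling for library depth was applied. Single pools and their depth were not analysed here, so each ratio is a mean without its spread, and the error given is the standard error (SE) or the 95% interval of the log2 fold change. In bulk RNA, fewer cells of a type and less RNA per cell cannot be told apart. Over the 18395 protein-coding genes whose ratio was not 1, the median ratio was 1.06 for the POMC Lepr+ and 1.17 for the POMC Glp1r+ line and the median log2 fold change was 0.07. Where a gene is called above, near or below the input, this refers to a ratio of 1 and not to these medians. The lines' mean ratio of Pomc itself was 239 for the POMC Lepr+ and 81.6 for the POMC Glp1r+ line, so the labelled cell type was strongly enriched in both.

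Sv2b, Cplx4 and Syt6 were the members that differed between the lines. They had an adjusted p under 0.05 (two-sided Wald test of DESeq2 in the authors' deposited table, Benjamini-Hochberg adjustment over 43199 genes), and all 3 were higher in POMC Glp1r+ neurons. No member passed it in the direction of POMC Lepr+ neurons, in which 3 members had an unadjusted p under 0.05. Of all genes tested, 2.11% passed in either direction and 1.28% as higher in POMC Glp1r+ neurons. Of the 17844 protein-coding genes that had a p-value and whose ratio was not 1, 3.14% passed in either direction and 1.94% as higher in POMC Glp1r+ neurons, against 3 of 68 members (4.41%). Whether the members' share differs from either background was not tested, and 3 calls are too few to draw a difference from.

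Sv2b encodes SV2B, a glycoprotein that spans the synaptic vesicle membrane and binds synaptotagmin. It lies at chr7:75114894-75309262 on the minus strand (GENCODE M21, GRCm38). Its mean ratio was 0.492 for the POMC Lepr+ and 1.39 for the POMC Glp1r+ line, so it was below the input in the first line and above it in the second. The ratio was 2.83-fold higher in POMC Glp1r+ neurons (log2 fold change 1.50, SE 0.29, 95% interval 0.94 to 2.06, DESeq2 adjusted p = 5.33e-05). An opposite-strand transcript covers 0.561% of its exon bases. Its relatives had smaller fold changes. Sv2a, the most widespread SV2 form of the brain, had ratios of 1.08 and 1.19 (log2 fold change 0.15, 95% interval -0.46 to 0.75), and Sv2c had 1.37 for the POMC Lepr+ and 0.922 for the POMC Glp1r+ line (-0.58, -1.18 to 0.03). The difference between these fold changes was not tested.

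Cplx4 encodes complexin 4, known from the ribbon synapses of the retina, where it is anchored to the membrane by a lipid. It lies at chr18:65955722-65970237 on the minus strand. It had the lowest ratio of all members in POMC Lepr+ neurons, 0.288, against 1.50 in POMC Glp1r+ neurons. That is a 5.22-fold difference (log2 fold change 2.38, SE 0.45, 95% interval 1.49 to 3.27, DESeq2 adjusted p = 5.94e-05) and the largest fold change among the members with a p-value. With 1 added to each count, fewer than 6 reads of the gene in every library can give the sums of its ratios, as larger counts can, which held for 2.82% of members and 9.69% of protein-coding genes whose ratio was not 1. What share of its difference rests on low counts was not tested.

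Syt6 encodes synaptotagmin 6, a calcium-binding synaptotagmin of the group that pairs through disulfide bonds, known for its part in the acrosome reaction of sperm. It lies at chr3:103575231-103645569 on the plus strand. Its ratio was 0.611 for the POMC Lepr+ and 1.53 for the POMC Glp1r+ line, 2.50-fold higher (log2 fold change 1.32, SE 0.39, 95% interval 0.56 to 2.09, DESeq2 adjusted p = 0.0384). A gene on the opposite strand, Atg4a-ps, covers 505 bases of its exons (8.67%), and whether the counting used strand is not given in the sources used here. When fold changes were centred on the median protein-coding gene, its log2 fold change was 1.25 and its adjusted p 0.0581, and the call ended.

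The 250 bases before the most upstream RefSeq start of Sv2b and of Syt6 are shown because both genes passed the test. Cplx4 also passed, and its promoter is not reported here. They are credited to RefSeq on GRCm38.p6 and written from 5′ to 3′ on the strand of the gene, at chr7:75309263-75309512 for Sv2b and chr3:103574995-103575244 for Syt6. The GENCODE model of Syt6 starts further upstream, so the last 14 bases of its window lie inside that gene model. Capitals mark GGGCGG, the GC box to which Sp1-type factors bind.
Sv2b: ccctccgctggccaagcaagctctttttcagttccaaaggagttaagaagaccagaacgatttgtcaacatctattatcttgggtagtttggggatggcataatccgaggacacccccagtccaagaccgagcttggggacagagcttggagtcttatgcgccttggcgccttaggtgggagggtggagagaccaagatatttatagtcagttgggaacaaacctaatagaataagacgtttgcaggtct
Syt6: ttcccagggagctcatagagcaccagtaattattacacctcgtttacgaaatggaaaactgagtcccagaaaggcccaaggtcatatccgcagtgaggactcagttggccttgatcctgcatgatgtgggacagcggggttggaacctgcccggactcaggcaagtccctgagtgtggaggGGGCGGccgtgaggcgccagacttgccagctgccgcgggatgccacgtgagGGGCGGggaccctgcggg
Syt6 held 2 GC boxes, whose first bases lie 69 and 18 bases before the RefSeq start, the nearer box running across the GENCODE start. Sv2b held none in this window. Neither held the cyclic AMP response element TGACGTCA, and the motifs cannot overlap each other. Both motifs were searched on both strands. GGGCGG was found in 36 of the 54 members with a listed promoter (66.7%) and in 50.6% of the promoters of 14271 protein-coding genes whose ratio was not 1. TGACGTCA was found in 2 of the 54 members, Stxbp3 and Syn1, and in 2.31% of those promoters. Such matches describe the letters and are not binding sites.

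Below the threshold, the direction was uneven. At an unadjusted p under 0.05, 16 of 68 members (23.5%) were higher in POMC Glp1r+ neurons, against 8.9% of protein-coding genes, and 3 (4.41%) were higher in POMC Lepr+ neurons, against 6.14%. Apart from Sv2b, Cplx4 and Syt6, these 16 and 3 members did not pass the adjusted test. Over the 71 members with a ratio other than 1, 50 had a positive log2 fold change (70.4%, against 55.6% of protein-coding genes), and the median was 0.24. The remaining gene, Syt8, had a ratio of exactly 1 in both lines, as counts of 0 would give, and tells nothing of either line.

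**Figure D1:**
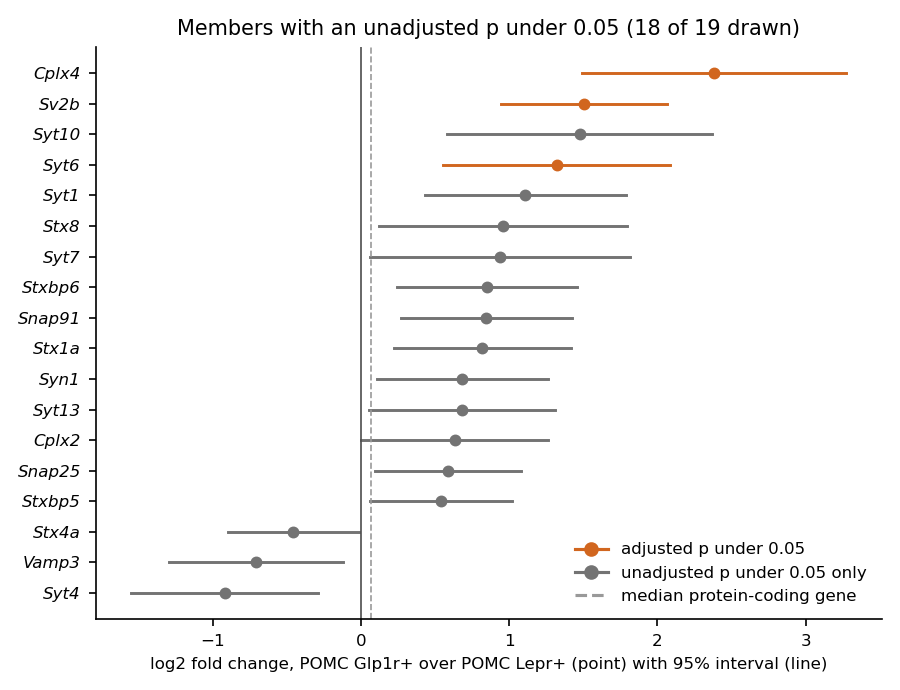
Log2 fold change (x axis, positive where POMC Glp1r+ neurons were higher; points, with lines for the 95% interval) of 18 of the 19 members with an unadjusted p under 0.05. Orange marks the 3 genes with an adjusted p under 0.05 (Cplx4, Sv2b and Syt6), the dashed line marks the median protein-coding gene at 0.07, and only Stx4a, Vamp3 and Syt4 lie to the left of 0.

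The calcium-binding synaptotagmins held the next 2 genes in the order of p. Syt10, a calcium sensor for IGF-1 secretion in the olfactory bulb, had ratios of 0.533 and 1.48 (log2 fold change 1.48, SE 0.46) and a DESeq2 adjusted p of 0.0550. Syt1, the calcium sensor of fast synchronous release, had 0.518 and 1.12 (log2 fold change 1.11, SE 0.35) and an adjusted p of 0.0589. Both stood just outside the threshold, as Syt6 stood just inside it. As with Cplx4, the sums of Syt10 are ones that fewer than 6 reads per library can give, while those of Syt1 are not. Both passed when p-values were adjusted over protein-coding genes whose ratio was not 1, at 0.0369 for Syt10 and 0.0393 for Syt1. When fold changes were centred on the median protein-coding gene, they moved further from the threshold, at 0.0755 for Syt10 and 0.0892 for Syt1.

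Syt1 was thus below the input in POMC Lepr+ and slightly above it in POMC Glp1r+ neurons. In the latter its ratio of 1.12 lay below the protein-coding median of 1.17. Syt7, the sensor of slow and asynchronous release, had ratios of 0.634 and 1.22 (log2 fold change 0.94, SE 0.45, unadjusted p = 0.0355, DESeq2 adjusted p = 0.412). Syt5 had the highest ratio of its group in either line, 2.93 for the POMC Lepr+ and 2.95 for the POMC Glp1r+ line, and the 95% interval of its log2 fold change ran from -0.58 to 0.60. Syt2, the fast sensor of hindbrain and spinal synapses, was lowest of the group in POMC Glp1r+ neurons at 0.742. Of the 8 genes of this group, 5 were below 1 for the POMC Lepr+ and 1 for the POMC Glp1r+ line. Of protein-coding genes, 43.3% and 38.1% were below 1 in these lines. The median log2 fold change of the group was 0.74.

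The other synaptotagmins, which bind calcium weakly or not at all or whose binding is less well described, ran both ways. Syt4, which sits on dense-core vesicles and lacks a calcium site in its first C2 domain, had the second highest ratio in POMC Lepr+ neurons among the members with a p-value, 2.83, against 1.50 in POMC Glp1r+ neurons. The ratio of POMC Lepr+ neurons was 1.89 times the other, which did not pass the test (log2 fold change -0.92, SE 0.32, unadjusted p = 0.00427, DESeq2 adjusted p = 0.123). A transcript on the opposite strand, Gm26658, covers 566 bases of the Syt4 exons (14.5%). Syt13, which does not bind calcium, ran the other way with ratios of 0.781 and 1.25 (log2 fold change 0.68, SE 0.32, adjusted p = 0.399). Syt17 was highest of the group in POMC Glp1r+ neurons at 1.60, with 1.17 in POMC Lepr+ neurons. The lowest was Syt15, at 0.907 in POMC Glp1r+ neurons, with 1.43 in the other line, for which the table gives no p-value (log2 fold change -0.65, SE 0.91).

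Doc2a and Doc2b encode soluble calcium sensors with a high affinity, tied to spontaneous and asynchronous release. Doc2a had ratios of 1.54 and 2.48 (log2 fold change 0.69, SE 0.48) and Doc2b 1.21 and 2.04 (0.76, SE 0.40), with adjusted p-values of 0.794 and 0.512. Both were above the input in each line. An opposite-strand gene, Ino80e, covers 39.4% of the Doc2a exon bases. Doc2g stood at 4.04 for the POMC Lepr+ and 0.798 for the POMC Glp1r+ line, with no p-value (log2 fold change -2.34, SE 1.21), and 58.9% of its 31-base words are shared with Gm49405, so its reads could be split between the genes.

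Complexins were below the input in POMC Lepr+ neurons in 4 of 4 genes, against 43.3% of protein-coding genes. Cplx1, the form of fast brain synapses, had 0.857 and 1.14 (log2 fold change 0.41, SE 0.27, adjusted p = 0.740). Cplx2, the more widespread brain form, had 0.813 and 1.26 (log2 fold change 0.63, SE 0.32, unadjusted p = 0.0490, adjusted p = 0.482). Cplx3, like Cplx4 a retinal complexin, had 0.436 and 0.944 with a wide interval (log2 fold change 1.12, 95% interval -0.82 to 3.05). All 4 fold changes were positive, with a median of 0.87, and 1 of them passed the adjusted test.

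Stx1a and Snap25, plasma-membrane SNAREs of neurons, had higher ratios in POMC Glp1r+ neurons without passing the adjusted test. Stx1a, a syntaxin at the release site, had ratios of 1.29 and 2.27 (log2 fold change 0.82, SE 0.31, unadjusted p = 0.00720, DESeq2 adjusted p = 0.167). Snap25, its partner, had 0.960 and 1.44 (log2 fold change 0.59, SE 0.25, adjusted p = 0.299). Snap25 was thus near the input in POMC Lepr+ neurons and both genes were above it in POMC Glp1r+ neurons.

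Syntaxins and SNAP-25 relatives of general secretion ran both ways. Stx4a, a syntaxin of regulated membrane insertion in many tissues, had ratios of 1.50 and 1.09 (log2 fold change -0.45, SE 0.22, unadjusted p = 0.0426, adjusted p = 0.448). Stx19 was low in both lines (0.742 and 0.712). Stx11, a syntaxin of granule release in immune cells, had the highest ratio of any member in POMC Lepr+ neurons, 7.60, against 0.667 in POMC Glp1r+ neurons, but with no p-value and an SE of 1.51 around a log2 fold change of -3.51. Whether a single pool set this mean was not analysed, so its rank is not a sign of strong enrichment. Among the SNAP-25 family, Snap47 was highest in both lines (1.14 and 1.65), Snap29 lowest in POMC Lepr+ (0.897) and Snap23, the widely expressed form, lowest in POMC Glp1r+ neurons (0.817).

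Vesicle SNAREs showed no common direction. Vamp2, synaptobrevin 2, the main vesicle SNARE of the brain, had ratios of 1.78 and 1.80, and the 95% interval of its log2 fold change was -0.46 to 0.50. Vamp3, cellubrevin, the form of most other cells, had ratios of 1.15 and 0.701 (log2 fold change -0.71, SE 0.30, unadjusted p = 0.0179, adjusted p = 0.283). Vamp8, an endosomal and exocrine form, was lowest in both lines (0.582 and 0.266). Vamp9 was highest in POMC Glp1r+ neurons (2.97, against 1.67) with an SE of 0.99.

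The endosomal, Golgi and ER syntaxins lay close together. All 8 had a ratio above 1 in POMC Glp1r+ neurons, 6 in POMC Lepr+ neurons, and 7 of the 8 log2 fold changes were 0.46 or less. The exception was Stx8, a SNARE of late endosomes, with 0.861 and 1.67 (log2 fold change 0.96, SE 0.43, unadjusted p = 0.0246, adjusted p = 0.340). Stx12 was highest in POMC Lepr+ neurons at 1.33 and also had 1.33 in POMC Glp1r+ neurons. Stx17, the syntaxin of autophagosomes, was lowest in POMC Glp1r+ neurons at 1.01, with 0.960 in POMC Lepr+ neurons.

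**Figure D2:**
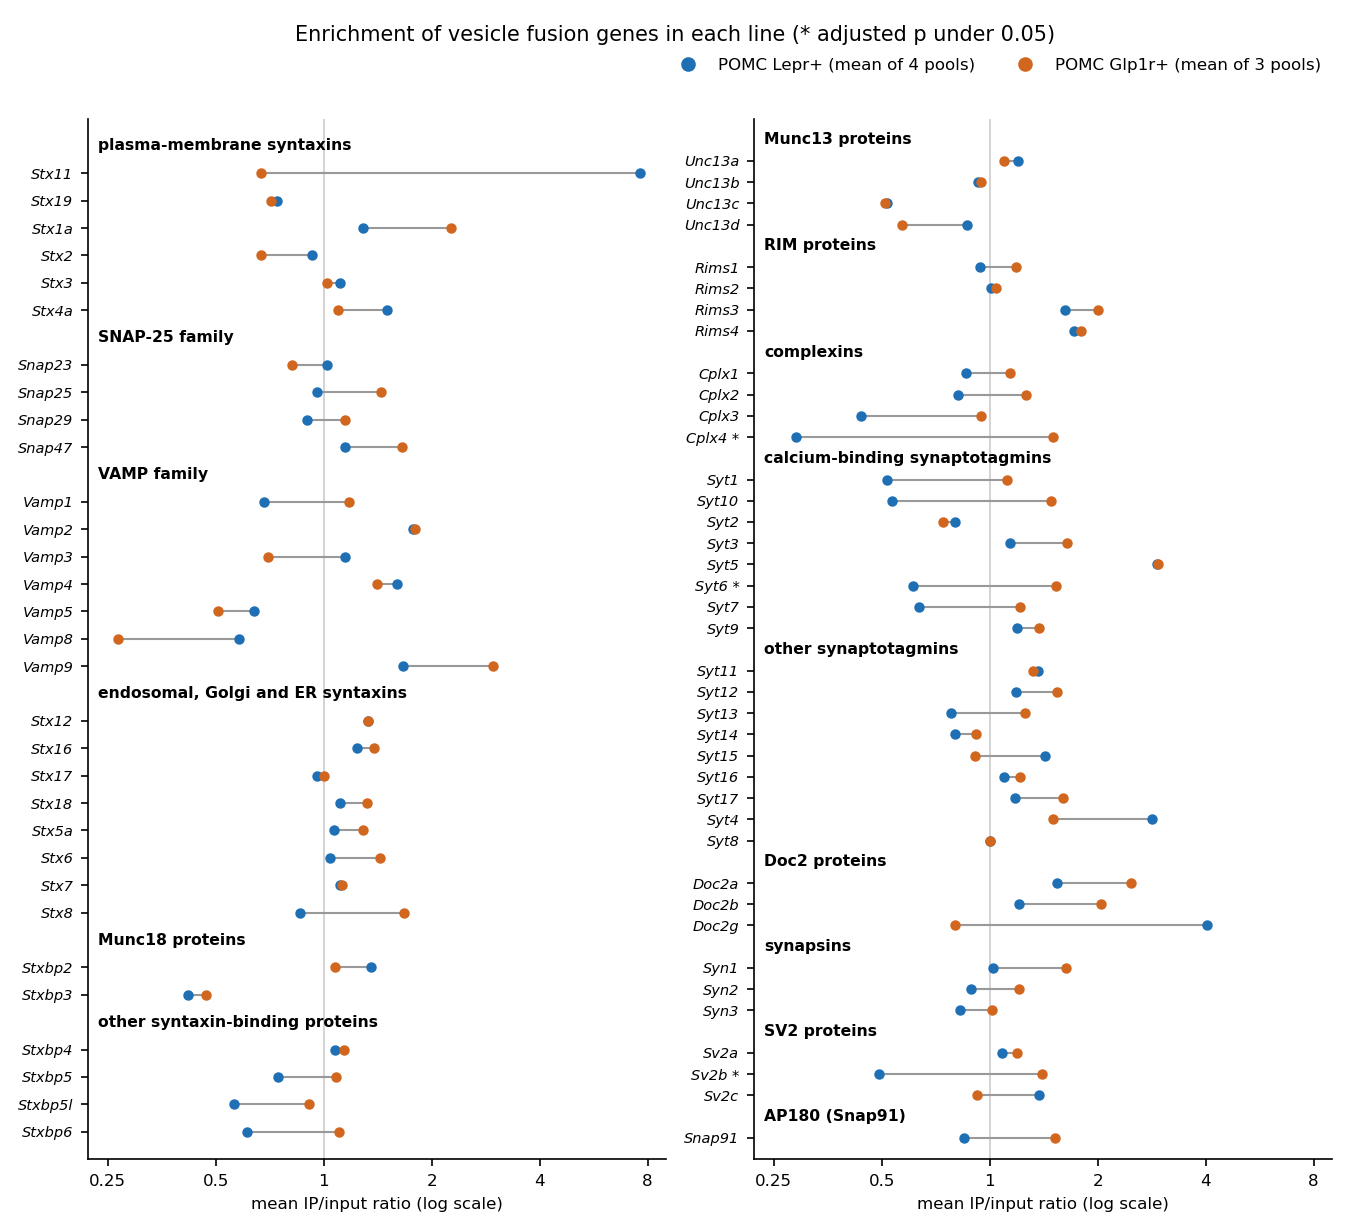
Mean IP/input ratio (x axes, log scale) of 70 of the 72 members by role, in POMC Lepr+ (blue, mean of 4 pools) and POMC Glp1r+ neurons (orange, mean of 3 pools). The orange point lies to the right for most complexins, calcium-binding synaptotagmins, synapsins and syntaxin-binding proteins, while Stx11, Doc2g and Syt4 have the blue point far to the right. Stx11 and Doc2g have no p-value. Asterisks mark an adjusted p under 0.05.

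Of the proteins that handle syntaxin, Stxbp2 (Munc18-2, of immune and epithelial cells) had ratios of 1.35 and 1.07, and Stxbp3 (Munc18c, the partner of syntaxin 4) was well below the input in both lines, at 0.418 and 0.470. Tomosyn, from Stxbp5, and amisyn, from Stxbp6, compete with synaptobrevin for syntaxin and restrain fusion. Stxbp5 had 0.745 and 1.08 (log2 fold change 0.54, SE 0.24, unadjusted p = 0.0259, adjusted p = 0.350) and Stxbp6 had 0.612 and 1.10 (log2 fold change 0.85, SE 0.31, unadjusted p = 0.00602, adjusted p = 0.149). Both restraining factors were therefore below the input in POMC Lepr+ neurons and near it in POMC Glp1r+ neurons. In each line both lay below the protein-coding median (1.06 and 1.17). Stxbp5l, tomosyn 2, was lowest of that group in both lines (0.561 and 0.907), and Stxbp4 highest (1.08 and 1.14).

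Among the Munc13 and RIM genes none had an unadjusted p under 0.05. Unc13a (Munc13-1, the main priming factor of excitatory synapses) had ratios of 1.20 and 1.10, the highest of the Munc13 genes in each line, with a 95% interval of its log2 fold change from -0.74 to 0.49. Unc13c, the cerebellar form Munc13-3, was lowest in each, at 0.517 and 0.510. Rims1, the large RIM of the active zone that tethers calcium channels, had 0.937 and 1.18 (log2 fold change 0.34, 95% interval -0.17 to 0.85), and Rims2 had 1.00 and 1.04. The short forms Rims3 and Rims4, which lack the part that binds Rab3, had the highest ratios of the group, 1.62 and 1.72 in POMC Lepr+ and 2.00 and 1.79 in POMC Glp1r+ neurons.

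Synapsins tie vesicles to each other and to actin in the reserve pool. Syn1 was highest in each line, at 1.02 and 1.64 (log2 fold change 0.68, SE 0.29, unadjusted p = 0.0202, adjusted p = 0.302), and Syn3, the early developmental form, lowest, at 0.828 and 1.02. Snap91 (AP180) had 0.847 and 1.52 (log2 fold change 0.85, SE 0.29, unadjusted p = 0.00402, adjusted p = 0.118). The 21 members outside the rule for naming genes had log2 fold changes between -0.60 and 0.79, and all their unadjusted p-values were 0.0585 or more.

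**Figure D3:**
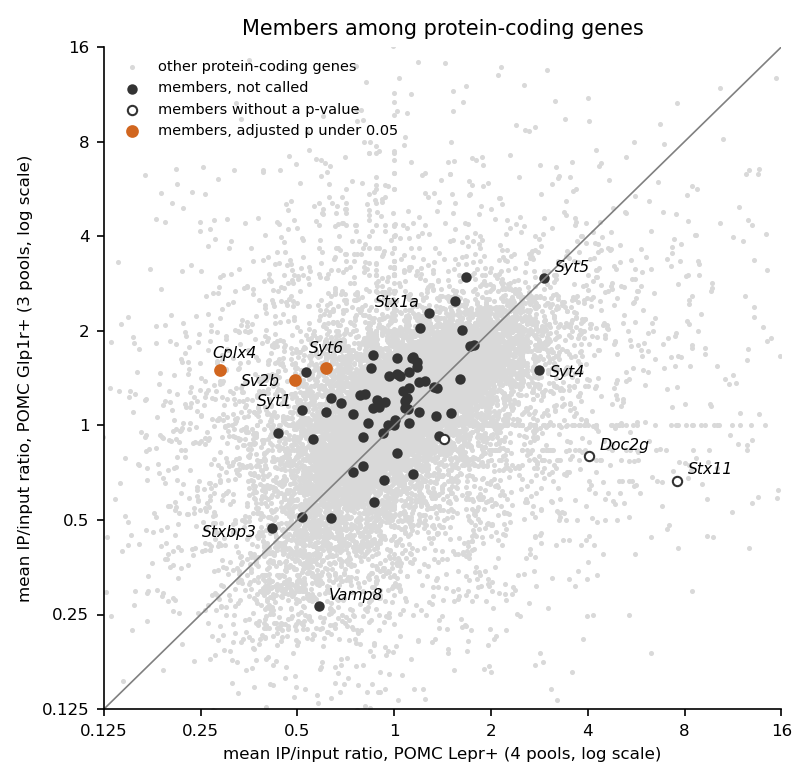
Mean IP/input ratio in POMC Lepr+ (x axis) and POMC Glp1r+ neurons (y axis), both on log scales, of the members (dark points; orange with an adjusted p under 0.05; open without a p-value) and of other protein-coding genes whose ratio was not 1 (grey; 144 genes lie outside the axes). Most members lie within a factor of 2 of the input in each line, Cplx4, Sv2b and Syt6 sit above the diagonal and Stx11 and Doc2g far below it.

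A ratio above 2 was found for 4 members (5.63%) in POMC Lepr+ neurons, against 10.04% of protein-coding genes, and for 6 (8.45%) in POMC Glp1r+ neurons, against 8.44%. Stx11 and Doc2g, which have no p-value, are among those in POMC Lepr+ neurons. Of members with a p-value, 2 were above 2 in that line. Ratios below 1 were found for 32 members (45.1%, against 43.3%) in POMC Lepr+ neurons and for 18 (25.4%, against 38.1%) in the other line. There were 20 members (28.2%) below 1 in POMC Lepr+ and above 1 in POMC Glp1r+ neurons, against 16.8% of protein-coding genes, and 6 (8.45%) with the reverse, against 11.7%. The order of the ratios was kept only in part between the lines (Spearman's rho 0.37 over 71 members and 0.48 over 18395 protein-coding genes, which come from the same 7 pools). Transcript length, with a median longest transcript of 3865 bases for members and 3117 for protein-coding genes, went with the log2 fold change at a rho of 0.09 and 0.08 respectively.

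Beyond the members, 81 other genes of release and vesicle cycling were described, of which 80 had a p-value. Sh3gl2, which encodes endophilin A1 and bends membrane at sites of vesicle retrieval, was higher in POMC Glp1r+ neurons (ratios of 0.648 and 1.22, log2 fold change 0.91, SE 0.27, DESeq2 adjusted p = 0.0346). Sncg, which encodes gamma-synuclein, a relative of the SNARE chaperone alpha-synuclein, was higher in POMC Lepr+ neurons (4.24 and 0.980, log2 fold change -2.11, SE 0.45, adjusted p = 0.000597). After centring on the median protein-coding gene, Sh3gl2 had a log2 fold change of 0.85 and an adjusted p of 0.0631, and its call ended. No other gene of this list passed, so 2 of 80 did, against 3.14% of protein-coding genes. At an unadjusted p under 0.05, 18 of 80 were higher in POMC Glp1r+ neurons, against 8.9% of protein-coding genes. In the other direction there were 2 of 80, against 6.14%. The median log2 fold change of the list was 0.29. The 4 genes for NSF and its adaptors, which take spent SNARE complexes apart, had log2 fold changes of 0.44 to 0.75, and the 3 for CAPS proteins and BAIAP3, which prime dense-core vesicles, of 0.36 to 0.70. Other groups of the list went both ways: 6 of 12 vesicle membrane proteins and 6 of 12 other SNAREs had positive values, with medians of -0.02 and 0.01, and the synaptotagmin-like proteins ran from -3.57 to 1.69.

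Markers of cell types also differed in ratio between the lines. The 14 general neuronal markers outside the members had a median log2 fold change of 0.21, with 10 positive, 1 called gene (Thy1, ratios of 0.710 and 1.60, DESeq2 adjusted p = 0.0175) and ranges of ratios of 0.510 to 2.15 and 0.653 to 2.05. All 6 astrocyte, 6 oligodendrocyte and 6 microglia markers had negative log2 fold changes. Their ratios ran from 0.395 to 0.677, 0.509 to 0.673 and 0.414 to 0.828 in POMC Lepr+ neurons and from 0.234 to 0.482, 0.301 to 0.401 and 0.286 to 0.784 in POMC Glp1r+ neurons. Thus these glial markers were below the input in both pulldowns, with the lower ratios in POMC Glp1r+ neurons, although no glial marker passed the adjusted test. The 6 POMC neuron markers were all lower in POMC Glp1r+ neurons, with a median log2 fold change of -1.15, and Cartpt passed (48.6 and 11.0, adjusted p = 0.00291). The 3 AgRP neuron markers were all higher there, at 2.86 and 5.45 for Agrp, 1.66 and 4.41 for Npy and 0.634 and 1.51 for Otp, and Npy and Otp passed (adjusted p = 0.0407 and 1.06e-06). Endothelial, tanycyte and pituitary markers had median log2 fold changes of 0.25, -1.49 and -0.16. The part of these shifts in the members' fold changes was not tested.

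**Figure D4:**
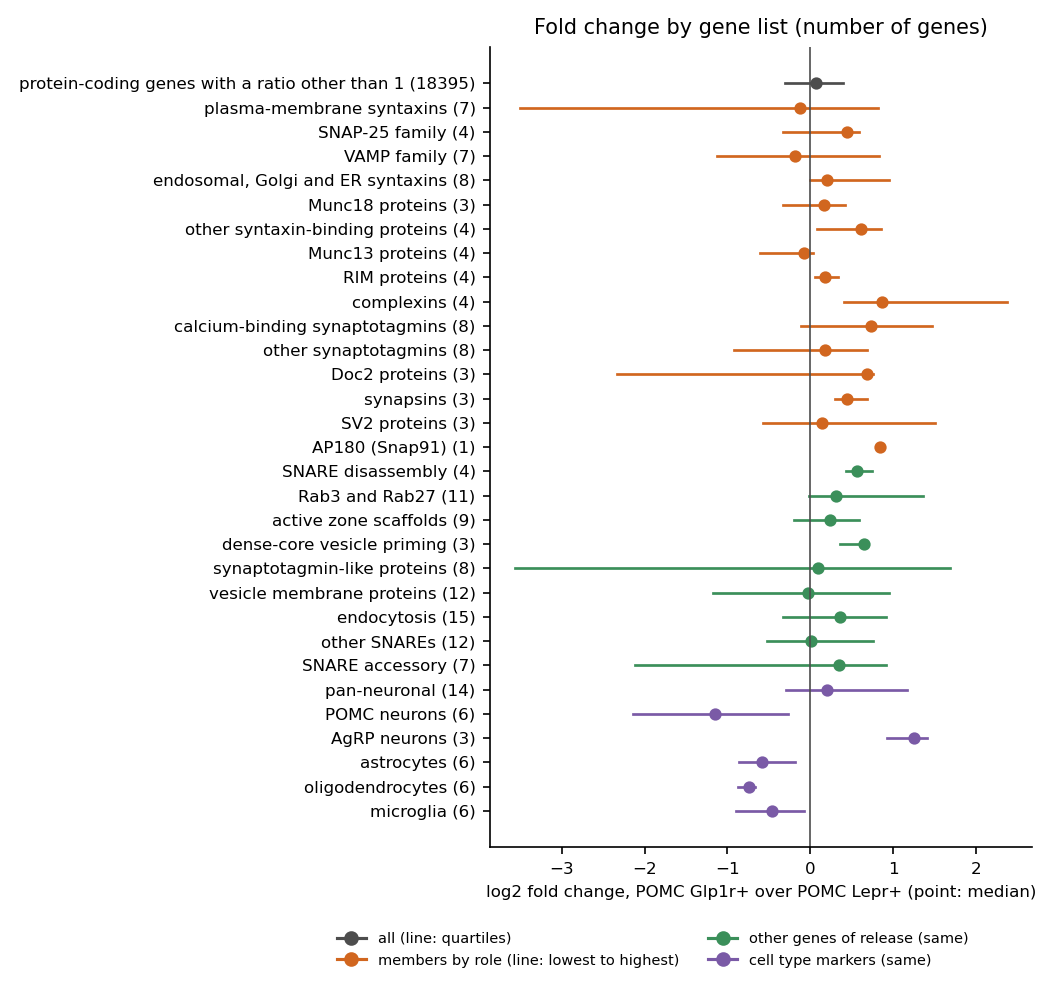
Log2 fold change (x axis, positive where POMC Glp1r+ neurons were higher) by gene list, with the number of genes; points are medians and lines run from the lowest to the highest gene (quartiles for all protein-coding genes). Medians were 0.87 for complexins, 0.74 for calcium-binding synaptotagmins, 0.21 for general neuronal markers and 0.07 for all protein-coding genes. They were below 0 for plasma-membrane syntaxins, the VAMP family, Munc13 proteins, vesicle membrane proteins, glial markers and POMC neuron markers, the last at -1.15.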

How the data were processed

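RNA-seq of IP and input libraries was done for 7 pools, 4 POMC Lepr+ and 3 POMC Glp1r+, 14 libraries in all. Per the paper and the processing notes, the authors aligned reads to GRCm38.p6 with STAR, counted them with Salmon (0.14.1), took IP over input in each pool and ran the Wald test of DESeq2 (1.26.0). The labels name Ensembl release and read length differently from the paper, and strand use is not given in the sources used here. The deposited table holds the authors' comparison only. The mean is a score that the authors deposited: IP/input ratios with a pseudocount of 1, times 1000 and rounded (as read from the values), averaged over pools. The deposited log2 fold change is positive where POMC Glp1r+ neurons were higher, and the Wald score divides it by its standard error. The deposited p-values are two-sided, and recomputing the authors' adjustment by Benjamini-Hochberg over 43199 genes gave the same values. No other column of the comparison was used. Depth and values of single libraries were not analysed here, so precision is known only through the standard error of the fold change. Ratios and not counts entered the test, so that error takes no direct account of how many reads lie behind a ratio.

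Mean ratios per line were solved from the score and the fold change with weights of 4 and 3 pools. Simulated data built with the same relation tested the arithmetic only. In the deposited values, the solved sums over the POMC Lepr+ pools lay within 0.1 of a whole number for 99.8% of genes, as sums of rounded scores would. Ratios within 0.05 of 1000 on the deposited scale were taken as exactly 1. Intervals are 1.96 standard errors on each side. All sums of ratios that counts below 6 can give were listed and compared with each gene's sums. The members and gene lists were chosen with earlier results of these data known. The genes named were members with an adjusted or unadjusted p under 0.05, the highest and lowest ratio of each role group in each line, 10 core genes of release, and other genes of release with an adjusted p under 0.05. Some genes that the rule names are not reported here or drawn by name. The rule did not name Sv2a, Syt8, Amph or the marker genes, which are named although their values were known. The design assumed libraries with counts, so no test between libraries could be made and the deposited test is described. Alternatives were the set of genes in the p adjustment, centring on the median protein-coding gene, and thresholds of 0.1 and 0.01. Positions and overlaps are from GENCODE M21, which holds all 72 members. Python 3.11.15, numpy 2.4.6, pandas 2.3.3, scipy 1.17.1 and matplotlib 3.10.9 were used.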

Additional observations from a re-analysis of the deposited data

How the results depend on the processing

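Of the members, 3 passed in the main comparison. Adjusting over protein-coding genes whose ratio was not 1, leaving out genes with a ratio of exactly 1 in either line, or a threshold of 0.1 gave 5 each, the added genes being Syt10 and Syt1, and all 5 were higher in POMC Glp1r+ neurons. Centring on the median protein-coding gene or a threshold of 0.01 gave 2, Sv2b and Cplx4. Syt10 had an adjusted p of 0.0345 and Syt1 of 0.0369 with ratios of exactly 1 left out, and of 0.0755 and 0.0892 after centring. No member passed as higher in POMC Lepr+ neurons under these settings. The median log2 fold change of members was 0.24, and 0.17 after centring. Of the other genes of release, 2 passed, 3 with the threshold of 0.1 or without ratios of 1 (Amph added), and 1, Sncg, with centring or a threshold of 0.01. Sh3gl2 had an adjusted p of 0.0631 after centring. Of 250 comparisons of single genes over these settings, 235 kept direction and side of the threshold. Only centring altered the fold changes, so under the other settings the direction could not turn. The count is therefore no measure of how stable the directions are. Centring turned the sign of small fold changes of Rims2 (-0.0153), Rims4 (-0.00984), Stx17 (-0.00275), Syt5 (-0.0601) and Vamp2 (-0.0495).

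No paired analysis was possible because the table holds no value of a single library, and for the same reason leaving out each pool was not run. Spread between pools and sequencing depth were not analysed here, and how far low counts bear on Cplx4 and Syt10 was not tested. Members without a p-value (Stx11, Doc2g and Syt15) have standard errors of 0.91 to 1.51.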
